A study of Mus musculus with 4 samples.

Results

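Natural killer (NK) cells with little or no RNA of the granzymes C, D and F were examined among the immune cells of CT2a gliomas. They were chosen by measured values, from barcodes with at least 500 detected genes and under 10% of unique molecular identifiers (UMIs, counts of captured RNA molecules) in mitochondrial genes. A member had at least 2 UMIs of Ncr1 and Klrb1c, which encode the NK receptors NKp46 and NK1.1. It had under 2 UMIs of the T cell genes Cd3d, Cd3e and Trac, under 30 of the macrophage genes C1qa, C1qb and C1qc, and under 5 of Gzmc, Gzmd and Gzmf. Of 13960 barcodes, 1019 met these cuts, 390 in WT and 629 in CaMKK2 KO mice. Of these, 972 carried the hashtag of a single mouse and entered the comparisons. The NK cells with 5 or more UMIs of Gzmc, Gzmd and Gzmf, called Granzyme C-high NK cells below, numbered 460.

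NK cells are innate lymphocytes that kill stressed or transformed cells by releasing granules, in which perforin opens the way for granzymes into the target. Whether an NK cell fires is set by a balance of receptors. Most Ly49 receptors (Klra genes) and the CD94-NKG2A pair read MHC class I molecules and hold the cell back, while NKG2D, NKp46 and the adaptors Fcer1g and Tyrobp push it forward. NK cells also release the chemokines CCL3, CCL4 and CCL5 and respond to interleukin-2, interleukin-15 and type I interferon.

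Live CD45+ cells were sorted from tumor-bearing brain hemispheres on day 14 after CT2a cells, a glioma line from C57BL/6 mice, had been placed in the brain. The hosts were young adult, age- and sex-matched female mice on the C57BL/6 background, either WT or CaMKK2-/- (CaMKK2 KO), and none received a drug. CaMKK2, a kinase that is switched on by calcium and calmodulin and acts on AMPK, was missing from the whole host and not from NK cells alone. The cells of 4 mice per genotype were labelled with hashtag antibodies and pooled on 1 10x Chromium 3' v3.1 channel per genotype, so genotype and channel cannot be told apart. Xist was read at 779 to 1151 CPM in the Granzyme C-low NK cells of the 8 mice, and the Y-linked genes Ddx3y, Uty, Eif2s3y and Kdm5d had no UMI. CPM are the UMIs of a gene summed over these cells of a mouse, scaled so that all mice have an equal total.

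The WT mice held 68, 101, 89 and 110 Granzyme C-low NK cells, and the CaMKK2 KO mice 132, 230, 158 and 84. The summed UMIs per mouse ranged from 558229 to 842457 in WT and from 550800 to 1348431 in CaMKK2 KO mice. Cells were shallow, with a median of 6162 UMIs in WT and 5559 in CaMKK2 KO mice, against 21000 and 19750 in Granzyme C-high NK cells. The depth bears on the granzyme cut, because a shallow cell shows fewer UMIs of every gene, and its part in the cut was not tested. The libraries shared 42 barcodes, of which 1 belonged to a WT member and none was a member in both libraries.

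Most members had none of the 3 granzymes. Among WT NK cells, 252 had no UMI of them, 74 had 1 and 42 had 2 to 4, while 23 cells just outside the cut had 5 to 9 and 178 had 30 or more. Among CaMKK2 KO NK cells, 419 had none, 122 had 1, 63 had 2 to 4, 28 had 5 to 9 and 163 had 30 or more. At the lower limit of the NK cut, 32 WT and 31 CaMKK2 KO members had exactly 2 UMIs of Ncr1 and Klrb1c, and 79 WT and 101 CaMKK2 KO cells outside it had 1. In WT mice 14 members had 5 to 29 UMIs of the C1q genes, against 2 in CaMKK2 KO mice.

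The markers of the label that the cuts did not use were high in these cells. Here and below, the T cells and macrophages set beside them were chosen to hold no UMI of Ncr1 or Klrb1c. That choice can lower other NK genes in them, so the contrast is a description. Txk, a kinase of the Tec family, was at 745 ± 134 CPM (SD, n = 4) in the WT and 794 ± 43.0 CPM in the CaMKK2 KO mice, and at 101 and 86.9 CPM in T cells. Klra8, which encodes the activating receptor Ly49H, was at 324 ± 142 and 358 ± 60.9 CPM, and at 0.63 and 0.47 CPM in macrophages. Granzyme A (Gzma) was at 6031 ± 2207 and 11910 ± 3922 CPM, and at 4.93 and 20.6 CPM in macrophages.

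Markers of other cells were not absent. The T cell list (8 genes, all with a UMI) summed to 722 ± 89.8 CPM in the WT and 747.5 ± 47.2 CPM in the CaMKK2 KO mice, against 4945 and 5282 CPM in T cells, and most of it was Trbc1 at 508 CPM. The macrophage list (7 of 7 with a UMI) summed to 792 ± 267 and 684 ± 367 CPM, against 37200 and 11200 CPM in macrophages, with Lyz2 the most abundant over all 8 mice at 418 CPM, although Apoe was above it in WT at 476 against 257 CPM. The monocyte list (5 of 5) summed to 586, 891, 1041 and 890 CPM in the WT and 1302, 1307, 1055 and 1928 CPM in the CaMKK2 KO mice, against means of 1090 and 2878 CPM in macrophages and 1140 and 1556 CPM in T cells, with Plac8 at 374 CPM over all 8 mice the most abundant and Ccr2 at 368 CPM in both genotypes next to it. The markers of innate lymphoid cells of group 1 (5 of 6, Zfp683 at 0) summed to 175 ± 59.5 and 132.5 ± 47.0 CPM. B cell markers (4 of 5 with a UMI, most of it Ighm at 71.4 CPM) summed to 99.1 ± 20.3 and 48.7 ± 23.7 CPM. Microglia markers (3 of 4, Sall1 at 0) summed to 63.1 and 54.2 CPM and glia or tumor markers (2 of 4, Gfap and Olig1 at 0, mostly Mbp) to 47.7 and 41.6 CPM. Dendritic cell markers (4 of 5, Clec9a at 0) summed to 4.79 and 6.63 CPM, neutrophil markers (4 of 4) to 6.94 and 8.85 CPM, basophil or mast cell markers (1 of 3, Mcpt8 and Ms4a2 at 0) to 1.13 and 0.288 CPM and red cell markers (1 of 2, Hba-a1 at 0) to 0.297 and 0 CPM.

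Camkk2, the deleted gene, was read at overlapping levels in the genotypes. Its locus (ENSMUSG00000029471) is on mm10 chromosome 5 from 122731170 to 122779409. It stood at 10.8, 14.3, 18.3 and 20.2 CPM in the WT mice and 15.0, 14.1, 13.6 and 21.8 CPM in the CaMKK2 KO mice, from 44 and 60 UMIs, too few for the test. The groups overlapped throughout. In macrophages of the same mice Camkk2 was at 28.5 ± 1.52 CPM in the WT and 13.6 ± 3.34 CPM in the CaMKK2 KO mice, which gave a log2 fold change of -1.10 (edgeR, adjusted p = 0.00553), and in Granzyme C-high NK cells at 16.1 ± 5.72 and 4.95 ± 3.66 CPM. The counts are 3' tags summed per gene, and the deleted part of the gene is not given in the sources used here, so a tag may come from a transcript that the deletion leaves.

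Granzyme C-low NK cells made up 6.12, 6.96, 6.05 and 7.14% of the immune cells of the WT mice and 9.38, 12.8, 9.37 and 6.78% of those of the CaMKK2 KO mice. CaMKK2 KO mouse 4 lay within the WT range and the other CaMKK2 KO mice above it. The means were 6.57% ± 0.564 and 9.58% ± 2.47, a difference of 3.01 percentage points (two-sided exact permutation test, p = 0.0857, adjusted over 2 shares 0.143, where the smallest p that 4 mice against 4 allow is 0.0286). The share of NK cells that were Granzyme C-low was 66.0, 63.1, 61.4 and 58.2% in WT and 75.4, 83.0, 54.9 and 88.4% in CaMKK2 KO mice. Here CaMKK2 KO mouse 3 was below every WT mouse and the other CaMKK2 KO mice were above them. The difference in means was 13.3 percentage points (two-sided exact permutation test, p = 0.143, adjusted 0.143), and 20.1 without CaMKK2 KO mouse 3 (p = 0.0571, the same exact test). Neither difference passed the test.

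**Figure D1:**
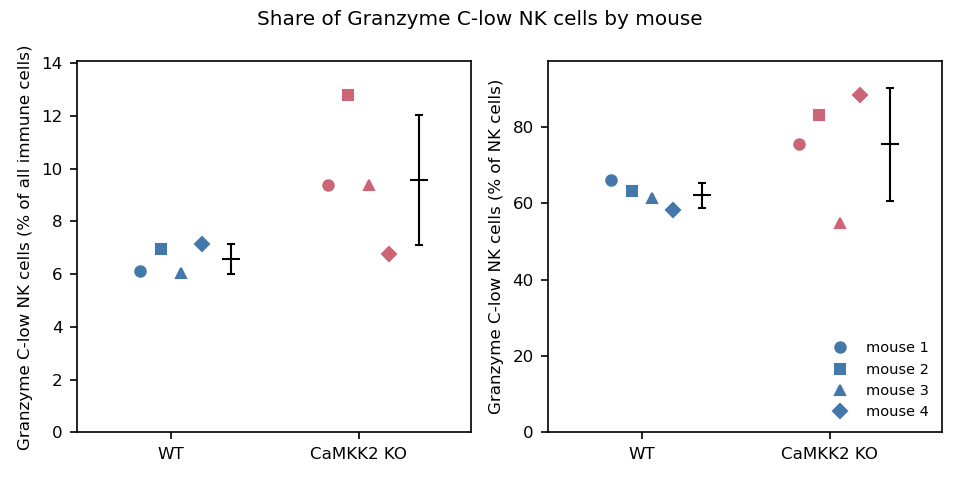
Share of Granzyme C-low NK cells by mouse, as a percentage of all immune cells assigned to the mouse (left) and of its NK cells (right); each symbol is a mouse, and the bar with caps is the mean ± SD of 4 mice. In each panel 3 of the 4 CaMKK2 KO mice lie above all WT mice, mouse 4 being the exception on the left (6.78%) and mouse 3 on the right (54.9%).

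Across all genes, 4502 had at least 200 UMIs in these cells and were tested between the genotypes on the sums per mouse (edgeR quasi-likelihood test, Benjamini-Hochberg adjustment). At an adjusted p under 0.05, 50 genes were called (1.11% of those tested), 31 higher (0.689%) and 19 lower (0.422%) in CaMKK2 KO mice. The mice of the genotypes did not overlap for 48 of the 50, and for 380 of all tested genes (8.44%), 280 of them higher (6.22%) and 100 lower (2.22%). At an unadjusted p under 0.05 there were 561 higher genes (12.5%) and 217 lower genes (4.82%). The median log2 fold change of all tested genes was 0.08, and -0.0045 with TMM scaling, under which 24 genes were higher and 27 lower. A fold change of a single gene is read against that shift.

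The number of calls turned on CaMKK2 KO mouse 3. Without it 280 of 3881 genes were called (7.21%), 174 higher (4.48%) and 106 lower (2.73%), and these held 44 of the original 50, while the other 6 then had too few UMIs to be tested. This mouse had the largest share of Granzyme C-high cells among its NK cells, 45.1%, against 24.6, 17.0 and 11.6% in the other CaMKK2 KO mice and 34.0 to 41.8% in the WT mice, and the part of that share in the result was not tested. Without CaMKK2 KO mouse 1 the calls numbered 17, and without each of the other mice 26 to 42. Only 16 of the 50 genes were called without each of the 8 mice in turn, 9 higher and 7 lower. Genes with too few UMIs once a mouse was left out count here as not called. In each fit that was so for 1 to 7 of the 50. The higher ones included Gm8797, Ifi44, Wls, Kif1b, Emp1, Gmfg, Nucb1 and Ly6a, and the lower ones Eif3j1, AA467197, Apoe, Gm2682, Hspa1b and Gm47283.

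**Figure D2:**
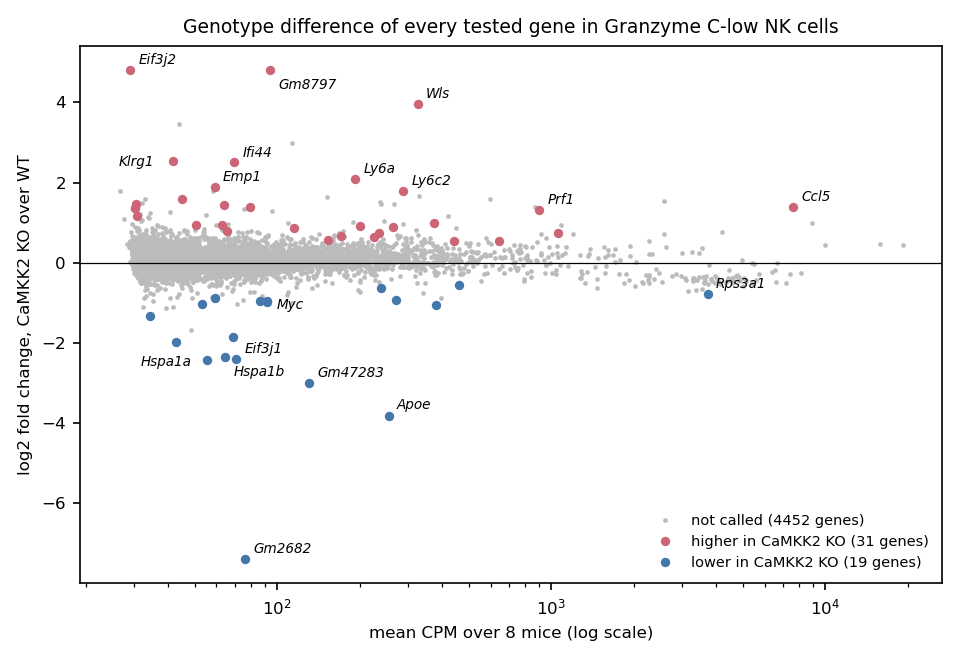
Log2 fold change of each of the 4502 tested genes (CaMKK2 KO over WT) against its mean CPM over the 8 mice on a log scale; red points are the 31 genes called higher and blue points the 19 called lower. Wls, Gm8797 and Eif3j2 lie highest among the called genes and Gm2682 and Apoe lowest.

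Among the genes of the killing machinery, perforin rose. Prf1 (ENSMUSG00000037202, chromosome 10, 61297833 to 61304680), the pore-forming protein of the granule, was at 228, 755, 659 and 429 CPM in the WT and 1169, 1823, 852 and 1313 CPM in the CaMKK2 KO mice. All CaMKK2 KO mice were above all WT mice, with mouse 3 the closest. The log2 fold change was 1.32 (SE 0.30, adjusted p = 0.0447), and the call was lost without any 1 of WT mice 3 and 4 and CaMKK2 KO mice 1, 2 and 4 (adjusted p up to 0.175). With cells thinned to 3000 UMIs, 64.0% ± 18.3 of WT and 84.3% ± 5.95 of CaMKK2 KO cells had a Prf1 UMI (79.4% and 90.3% before thinning), against 0.545% and 1.11% of macrophages.

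The granzymes of the same granules did not pass. Gzmb, which encodes the caspase-activating granzyme B, was at 500, 1856, 2026 and 899 CPM in the WT and 2988, 5595, 1935 and 4780 CPM in the CaMKK2 KO mice, which gave a log2 fold change of 1.53 (adjusted p = 0.0677). Mouse 3 lay within the WT range and the other CaMKK2 KO mice above it. Gzma was at 3377, 7331, 8282 and 5133 CPM in the WT and 12090, 16020, 6599 and 12930 CPM in the CaMKK2 KO mice (log2 fold change 0.98, adjusted p = 0.102), and again only mouse 3 overlapped with WT. Without that mouse both passed, at adjusted p values of 0.0175 for Gzmb and 0.0166 for Gzma, but neither passed when any other mouse was left out (adjusted p up to 0.241 for Gzmb and 0.333 for Gzma). Serpinb9, the inhibitor that shields the killer cell from granzyme B, showed a log2 fold change of 0.49 (adjusted p = 0.0615). In all, of the 18 genes of cytotoxic granules and death ligands 15 were tested, 1 rose, none fell (edgeR; 8 higher and none lower at an unadjusted p under 0.05, 3 higher by DESeq2 and 2 by limma) and the median log2 fold change was 0.39. Over all tested genes 0.689% were called higher, and 12.5% were higher and 4.82% lower at an unadjusted p, with a median of 0.08. Without CaMKK2 KO mouse 3, 5 of these cytotoxic genes were called higher, where 4.48% of all genes tested were.

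Klrg1 (ENSMUSG00000030114, chromosome 6, 122270596 to 122282882), an inhibitory receptor for cadherins that marks mature NK cells, rose most among the receptors. It was at 8.96, 17.2, 11.6 and 10.7 CPM in the WT and 91.1, 106.0, 19.6 and 67.2 CPM in the CaMKK2 KO mice. The groups did not overlap, but mouse 3 stood just above WT and far below the other CaMKK2 KO mice. The log2 fold change was 2.53 (SE 0.47, adjusted p = 0.0158), and the call was lost without any 1 of WT mice 3 and 4 and CaMKK2 KO mouse 1 (adjusted p up to 0.0776). Without CaMKK2 KO mouse 2 the gene had too few UMIs to be tested. After thinning, 2.81% ± 1.79 of WT and 17.5% ± 9.02 of CaMKK2 KO cells had a Klrg1 UMI (4.57% and 23.9% before), against 0.140% and 0.0566% of macrophages. In Granzyme C-high NK cells Klrg1 was at 58.0 ± 22.2 and 81.7 ± 15.8 CPM (log2 fold change 0.48, adjusted p = 0.296), and the difference of these differences was not called (1.87 on the log2 scale, adjusted p = 0.378).

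Of the Ly49 genes, 12 in the list and 6 tested, 1 rose and none fell, with a median log2 fold change of 0.25. At an unadjusted p under 0.05, 2 of them were higher and 1 lower. Of all tested genes 0.689% were called higher, and 12.5% were higher and 4.82% lower at an unadjusted p. Klra3 (chromosome 6, 130323289 to 130337574), which encodes the class I receptor Ly49C, was at 75.2, 94.7, 86.4 and 68.9 CPM in the WT and 153, 119, 171 and 154 CPM in the CaMKK2 KO mice. The groups were apart, with a log2 fold change of 0.87 (adjusted p = 0.0103, and up to 0.0565 without WT mouse 4 or CaMKK2 KO mouse 1). DESeq2 also called it and limma did not. Without CaMKK2 KO mouse 3 the list held 2 higher calls, where 4.48% of all genes tested were called higher. Klra9, which encodes Ly49I, showed a log2 fold change of 0.69 (adjusted p = 0.119), and Klra1, which encodes Ly49A, one of -0.93 (adjusted p = 0.139). The Klra genes are near copies of each other, and 3' reads may have been split between them. Among the 13 NKG2 and NKR-P1 genes, 10 tested, Klrg1 was the only call (median 0.06) and DESeq2 gave it no adjusted p, and Klrc1, the inhibitory chain NKG2A, showed a log2 fold change of -0.42 (adjusted p = 0.127, called lower by DESeq2). Klrk1, which encodes NKG2D, and Klrd1, which encodes CD94, stood at -0.05 (adjusted p = 0.872) and 0.06 (adjusted p = 0.849).

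None of 22 tested genes for activating receptors and adaptors (26 listed) was called by edgeR, DESeq2 or limma. At an unadjusted p under 0.05, 7 were higher and 2 lower, against 12.5% and 4.82% of all tested genes. The median log2 fold change was 0.19, against 0.08 for all tested genes. The kinase gene Fyn was at 145, 172, 166 and 146 CPM in the WT and 202, 237, 225 and 216 CPM in the CaMKK2 KO mice, with no overlap (log2 fold change 0.49, adjusted p = 0.0646). With CaMKK2 KO mouse 3 left out, Fyn and Cd247, the zeta chain, passed as higher and Cd160 as lower, at adjusted p values of 0.0369, 0.0382 and 0.0213. In that fit 4.48% of all genes tested were called higher and 2.73% lower. The adaptors Fcer1g and Tyrobp had log2 fold changes of 0.23 (adjusted p = 0.437) and 0.16 (adjusted p = 0.556).

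**Figure D3:**
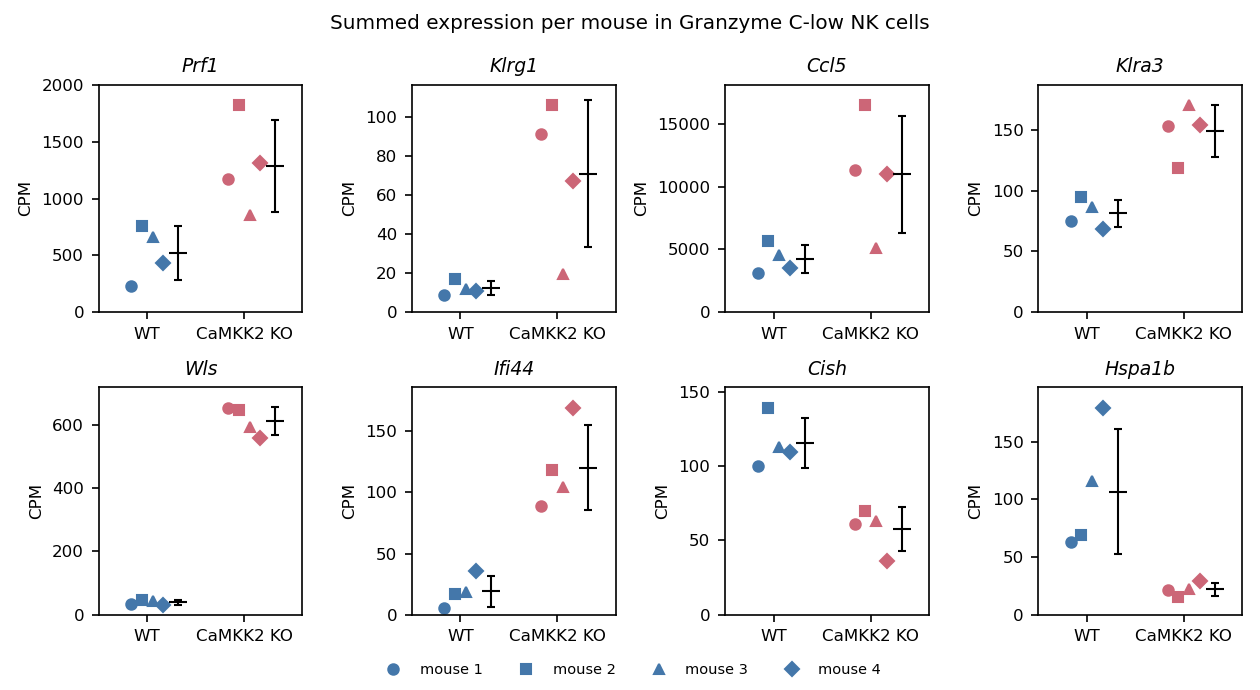
CPM of 8 genes in the Granzyme C-low NK cells of each mouse; each symbol is a mouse, mice of the same number in different genotypes are different animals, and the bar with caps is the mean ± SD of 4 mice. Prf1, Klrg1 and Ccl5 are lowest in mouse 3 among the CaMKK2 KO mice. Of the genes shown, only Ccl5 overlaps between genotypes.

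The chemokine gene Ccl5 (chromosome 11, 83525778 to 83530518), whose product draws T cells and myeloid cells, was at 3156, 5666, 4519 and 3514 CPM in the WT and 11310, 16500, 5105 and 11010 CPM in the CaMKK2 KO mice. It rose with a log2 fold change of 1.38 (SE 0.28, adjusted p = 0.028), although CaMKK2 KO mouse 3 lay below WT mouse 2, and only the fits that left out WT mouse 2 or CaMKK2 KO mouse 3 kept the call (adjusted p up to 0.131 in the others). Ccl5 also rose in macrophages, from 211 to 2013 CPM (log2 fold change 3.26, adjusted p = 0.0351), levels below those of the NK cells of the same genotype. Ccl3 and Ccl4 had log2 fold changes of 1.47 (adjusted p = 0.191) and 1.39 (adjusted p = 0.175). Of the 17 chemokine and cytokine genes 8 were tested, Ccl5 alone was called, and the median was 0.47, where 0.689% of all tested genes were called higher. At an unadjusted p under 0.05, 3 of the 8 were higher and 1 lower, against 12.5% and 4.82% of all tested genes. The fit that left out CaMKK2 KO mouse 3 called 2 higher and 1 lower, against 4.48% and 2.73% of all genes tested.

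No tested trafficking gene was called by edgeR (19 of 24 tested, median 0.47, 10 higher and 1 lower at an unadjusted p under 0.05 against 12.5% and 4.82% of all tested genes, and 3 higher by DESeq2 and 1 by limma). The integrin genes Itgb2 and Itgam, the chains of Mac-1, had log2 fold changes of 0.96 (adjusted p = 0.0842) and 1.30 (adjusted p = 0.102). S1pr5, the sphingosine receptor with which NK cells leave tissues, was at 5.37, 22.95, 18.3 and 16.6 CPM in the WT and 34.6, 74.2, 19.6 and 72.6 CPM in the CaMKK2 KO mice (log2 fold change 1.59, adjusted p = 0.093). Without CaMKK2 KO mouse 3, Itgb2, Itgam, S1pr5 and Rgs1 passed at adjusted p values of 0.00585, 0.00429, 0.0113 and 0.0204. In that fit 4.48% of all genes tested were called higher.

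Cish (chromosome 9, 107296026 to 107302784), the suppressor of cytokine signalling that checks the response to interleukin-15, fell. It was at 100.3, 139, 113 and 109 CPM in the WT and 61.1, 69.7, 63.1 and 36.3 CPM in the CaMKK2 KO mice. All CaMKK2 KO mice were below every WT mouse. The log2 fold change was -0.96 (SE 0.18, adjusted p = 0.0158), and the call was lost without WT mouse 2 or CaMKK2 KO mouse 1 (adjusted p up to 0.0761). Cish was the only call among 22 tested genes of cytokine receptors and JAK-STAT signalling (29 listed, median 0.19). Among all tested genes 0.422% were called lower, and their median was 0.08. At an unadjusted p under 0.05, 10 genes of this list were higher and 3 lower, against 12.5% and 4.82% of all tested genes. The receptor chain Il2rb showed a log2 fold change of 0.15 (adjusted p = 0.556), and Jak3 and Tyk2 ones of 0.89 (adjusted p = 0.0842) and 0.82 (adjusted p = 0.105). Without CaMKK2 KO mouse 3 there were 3 higher calls, Tyk2, Il12rb2 and Ifngr1 (adjusted p = 0.0171, 0.0191 and 0.0237), and 1 lower, Cish. In that fit 4.48% of all genes tested were called higher and 2.73% lower.

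None of 21 tested transcription factor genes (26 listed, median 0.21) was called by edgeR, DESeq2 or limma. At an unadjusted p under 0.05, 5 of the 21 were higher and 1 lower, against 12.5% and 4.82% of all tested genes. Eomes, a T-box factor of NK cell development, stood at -0.09 (adjusted p = 0.839) and its relative Tbx21 at 0.30 (adjusted p = 0.522). Without CaMKK2 KO mouse 3, Zeb2, a factor of terminal NK maturation, and Klf6 and Irf8 passed as higher and Tcf7, a factor of early NK cells, as lower, at adjusted p values of 0.0237, 0.0158, 0.0395 and 0.0208. With that mouse their log2 fold changes were 1.03, 0.62, 0.72 and -0.73. Without it 4.48% of all genes tested were called higher and 2.73% lower. Outside this list Myc, a transcription factor of cell growth, fell from 118, 128, 115 and 122 CPM in WT to 70.3, 39.3, 90.4 and 49.0 CPM in CaMKK2 KO mice. The WT mice were close together and above all CaMKK2 KO mice (log2 fold change -0.94, adjusted p = 0.0447), yet only the fit without CaMKK2 KO mouse 3 kept the call (adjusted p up to 0.139 in the others).

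Ifi44 (chromosome 3, 151730922 to 151749960), an interferon-induced gene, was at 5.37, 17.2, 18.3 and 35.6 CPM in the WT and 88.8, 118, 104 and 169 CPM in the CaMKK2 KO mice. All CaMKK2 KO mice were above all WT mice, mouse 3 included, and the log2 fold change was 2.52 (SE 0.32, adjusted p = 5.64e-04). The other type I interferon response genes did not follow it past the threshold (30 listed, 19 tested, 1 called, median 0.29), where 0.689% of all tested genes were called higher. At an unadjusted p under 0.05, 5 of the 19 were higher and none lower, against 12.5% and 4.82% of all tested genes. Isg15, a ubiquitin-like protein of this response, showed a log2 fold change of 1.00 (adjusted p = 0.223), Ifi27l2a one of 1.65 (adjusted p = 0.0842), and Ifit1 and Irf7 ones of 0.36 (adjusted p = 0.751) and 0.64 (adjusted p = 0.314). With CaMKK2 KO mouse 3 left out, 4 genes of this list were called higher, among them Xaf1, Ifi27l2a and Isg15 at adjusted p values of 0.0237, 0.0335 and 0.0442, next to Ifi44. In that fit 4.48% of all genes tested were called higher. None of 10 tested interferon-inducible GTPase genes (16 listed, median 0.22) was called by edgeR, DESeq2 or limma, with 2 higher at an unadjusted p under 0.05, against 12.5% of all tested genes.

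Ly6a, which encodes the surface protein Sca-1, was at 78.8, 50.2, 61.4 and 94.96 CPM in the WT and 176, 271, 229 and 575.5 CPM in the CaMKK2 KO mice, with no overlap (log2 fold change 2.09, SE 0.32, adjusted p = 0.00373). Ly6c2, which encodes Ly6C, was at 50.2, 195, 151 and 110 CPM in the WT and 336, 534, 184 and 737 CPM in the CaMKK2 KO mice, so that mouse 3 overlapped with WT (log2 fold change 1.80, adjusted p = 0.0367, kept in the fits that left out WT mouse 2 or CaMKK2 KO mouse 3 and in no other). Plac8, a small protein of lymphoid and myeloid cells, was at 183, 261, 236 and 307 CPM in the WT and 494, 392, 383 and 739 CPM in the CaMKK2 KO mice (log2 fold change 1.01, adjusted p = 0.0289, kept in the fits that left out WT mouse 4 or CaMKK2 KO mouse 2 or 3 and in no other). Ly6c2 and Plac8 belong to the monocyte list, 4 of whose 5 genes were tested. In that list Ccr2, the chemokine receptor that defines these monocytes, stood at -0.0046 (adjusted p = 0.993) and Chil3 at -0.41 (adjusted p = 0.799). Without the cells rich in myeloid RNA described next, the log2 fold changes were 1.56 for Ly6c2 (adjusted p = 0.0137) and 0.83 for Plac8 (adjusted p = 0.00895).

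A few cells within the cuts carried much RNA of MHC class II genes, which antigen-presenting cells use to show peptides to CD4 T cells. Summed over Cd74, H2-Aa, H2-Ab1 and H2-Eb1, the level was 1888, 294, 259 and 392 CPM in the WT and 1704, 2175, 577 and 3903 CPM in the CaMKK2 KO mice. The top 3 cells held 87.8% of these UMIs in WT mouse 1, 65.4% in CaMKK2 KO mouse 1, 74.8% in mouse 2 and 83.9% in mouse 4, but 7.53 to 34.2% in the others. None of the 5 tested MHC class II genes (7 listed, median 1.51) was called by edgeR or DESeq2. All 5 were higher at an unadjusted p under 0.05, against 12.5% of all tested genes, and limma, which weighted cells equally, called 1. Without CaMKK2 KO mouse 3, edgeR called 2 higher, H2-Ab1 and H2-DMa (adjusted p = 0.033 and 0.0355), where 4.48% of all genes tested were.

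In an alternative chosen after seeing the data, cells with 20 or more UMIs of these 4 genes, or of Apoe and Lyz2, were left out, which removed 6 of 368 WT and 10 of 604 CaMKK2 KO cells. The MHC class II sums were then 265, 277.5, 256 and 282 CPM in the WT and 620, 575, 565 and 577 CPM in the CaMKK2 KO mice. The ratio was 2.16-fold. The cells were left out on the level of these same genes, so the sums are a description and no test of the 4 genes is given. Macrophages held 12780 ± 6057 CPM of these genes in the WT and 54060 ± 7189 CPM in the CaMKK2 KO mice, 4.23-fold more. T cells held 668 ± 532 and 2535 ± 1733 CPM. Granzyme C-high NK cells, from which no cells were left out, held 283, 934, 2298 and 243 CPM in the WT mice. In the CaMKK2 KO mice they held 454, 611, 308 and 345 CPM. The means were 940 ± 960 and 430 ± 136 CPM, but all CaMKK2 KO mice lay within the WT range, so no direction is read. At least 1 UMI of the 4 genes was found in 79.8 to 83.6% of the Granzyme C-low NK cells of WT mice and 93.5 to 97.7% of those of CaMKK2 KO mice. The part of free macrophage RNA in this difference was not tested. In this setting 98 genes were called, 66 higher and 32 lower, with 48 of the original 50 among them. These counts include genes on which the cells were left out, whose calls are no result. Outside those genes, Gzmb (adjusted p = 0.0316), Serpinb9 (adjusted p = 0.032) and Itgam (adjusted p = 0.0439) passed as higher.

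Of 17 genes of MHC class I and peptide loading, all tested (median 0.26), only H2-Q6 was called, where 0.422% of all tested genes were called lower. At an unadjusted p under 0.05, 7 of the 17 were higher and 2 lower, against 12.5% and 4.82% of all tested genes. DESeq2 called 2 lower and limma 1 lower. The fit without CaMKK2 KO mouse 3 called 3 higher and 1 lower, against 4.48% and 2.73% of all genes tested. H2-Q6, a nonclassical class I gene, fell from 387, 324, 324 and 389 CPM in WT to 156, 157, 269 and 165 CPM in CaMKK2 KO mice, with mouse 3 nearest to WT but below it (log2 fold change -0.92, adjusted p = 0.0158, and up to 0.0875 without WT mouse 4 or CaMKK2 KO mouse 1, 2 or 4). Its relative H2-Q7 showed a log2 fold change of -0.41 (adjusted p = 0.139), and reads may have been split between them. H2-K1, a classical class I gene and ligand of Ly49 receptors, had 0.24 (adjusted p = 0.381) and B2m, the shared light chain, 0.37 (adjusted p = 0.175).

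Both inducible HSP70 genes fell. Hspa1a was at 60.9, 60.2, 79.7 and 174.5 CPM in the WT and 5.77, 20.8, 23.02 and 20.0 CPM in the CaMKK2 KO mice, and Hspa1b at 62.7, 68.9, 116 and 179 CPM in the WT and 21.9, 15.6, 22.2 and 29.1 CPM in the CaMKK2 KO mice. WT mouse 4 was the highest for both, and neither gene overlapped between genotypes. The log2 fold changes were -2.43 (SE 0.38, adjusted p = 0.00465) and -2.36 (SE 0.32, adjusted p = 0.00141). limma called both, and DESeq2 called Hspa1b and gave Hspa1a no adjusted p. The other 16 tested immediate early and heat shock genes (19 listed, median of all 18 tested 0.13) gave no call, Hspa8, the constitutive member, standing at -0.07 (adjusted p = 0.905) and Fos at 0.46 (adjusted p = 0.257). With CaMKK2 KO mouse 3 left out, Dusp1 passed as higher (edgeR, log2 fold change 0.62, adjusted p = 0.0494), where 4.48% of all genes tested were called higher.

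The promoters of the pair are shown because the genes are near copies that moved together, with 63.8% of the 31-base windows of the Hspa1a transcripts also found in those of Hspa1b. The 250 bases before the RefSeq start of each gene, from GRCm38.p6, lie at chr17:34972157-34972406 for Hspa1a and chr17:34959239-34959488 for Hspa1b, both on the minus strand. They differ at 3 positions, and reads may have been split between the genes. Capitals mark the match to GAANNTTC, a core of the heat shock element that reads the same on both strands, and 6.69% of the 32851 RefSeq promoter windows of this length hold a match.
Hspa1a: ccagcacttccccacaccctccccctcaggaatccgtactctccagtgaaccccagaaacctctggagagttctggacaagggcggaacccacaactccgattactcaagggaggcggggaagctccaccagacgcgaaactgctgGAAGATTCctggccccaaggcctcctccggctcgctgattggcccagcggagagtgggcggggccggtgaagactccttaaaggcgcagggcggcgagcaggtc
Hspa1b: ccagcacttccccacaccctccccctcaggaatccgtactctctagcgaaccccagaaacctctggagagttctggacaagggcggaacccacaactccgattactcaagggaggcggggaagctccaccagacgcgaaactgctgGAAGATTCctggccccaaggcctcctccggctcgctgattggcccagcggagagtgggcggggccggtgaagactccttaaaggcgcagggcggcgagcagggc

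The remaining lists gave no call by edgeR, DESeq2 or limma. For comparison, 12.5% of all tested genes were higher and 4.82% lower at an unadjusted p under 0.05, with a median of 0.08. Of 24 genes of glycolysis and hypoxia 17 were tested (median 0.24, 8 higher and 1 lower at an unadjusted p under 0.05), with Slc2a3, a glucose transporter, at 0.78 (adjusted p = 0.0941). Of 26 cell cycle genes only 13 had enough UMIs (median 0.07, 1 higher at an unadjusted p under 0.05). Of 11 checkpoint genes 5 were tested (median 0.12, 2 higher at an unadjusted p under 0.05), and Pdcd1, Lag3, Havcr2, Tigit and Ctla4 were below the limit of 200 UMIs. Of 17 genes for CaMKK2, AMPK and calmodulin kinases 8 were tested (median 0.25, 2 higher and 1 lower at an unadjusted p under 0.05), with Calm3 at 0.39 (adjusted p = 0.131) and Camk2g at -0.53 (adjusted p = 0.245). With CaMKK2 KO mouse 3 left out, 1 gene of glycolysis and hypoxia and 1 of the kinase list were called higher. In that fit 4.48% of all genes tested were called higher.

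**Figure D4:**
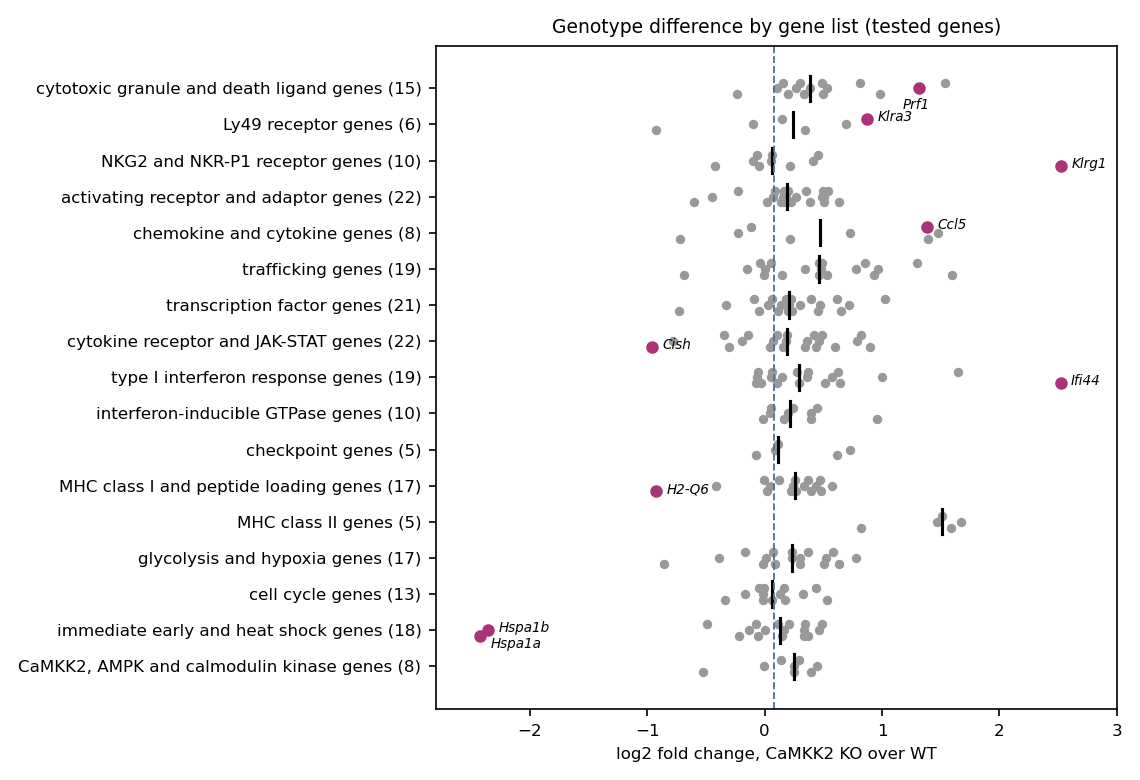
Log2 fold change (CaMKK2 KO over WT) of the tested genes of each list, with the number tested in brackets; purple points are called genes, the black line is the list's median, and the dashed line is the median of all 4502 genes (0.08). Each list holds at most 2 called genes, and the MHC class II list has the median farthest from the dashed line (1.51), with no call.

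Large differences were also found in genes outside the lists. Wls (chromosome 3, 159839672 to 159938664), which carries Wnt proteins to the cell surface, was at 34.0, 47.3, 44.8 and 30.9 CPM in the WT and 653, 644.5, 592.5 and 557 CPM in the CaMKK2 KO mice, a 15.6-fold increase (log2 fold change 3.96, SE 0.16, adjusted p = 8.26e-10). Both groups were tight and lay far apart. In Granzyme C-high NK cells Wls showed a log2 fold change of 3.89 (adjusted p = 1.46e-09), and in macrophages it went from 53.6 to 115 CPM (log2 fold change 1.11, adjusted p = 0.0299). Emp1, a membrane protein of epithelia, rose from 24.1 ± 7.34 to 94.1 ± 24.7 CPM (log2 fold change 1.89, adjusted p = 4.84e-04). Kif1b, a kinesin motor, rose from 44.0 ± 10.4 to 115 ± 26.0 CPM (log2 fold change 1.38, adjusted p = 0.0026).

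Some of the largest differences fell on near copies of other genes. Eif3j1 (chromosome 2), a subunit of translation factor eIF3, was at 113, 119, 120 and 126 CPM in the WT and 17.3, 26.7, 23.9 and 20.0 CPM in the CaMKK2 KO mice (log2 fold change -2.40, adjusted p = 3.81e-07). Its near copy Eif3j2 (chromosome 18), 94.0% of whose 31-base transcript windows are also in Eif3j1, was at 1.79, 2.87, 1.66 and 1.19 CPM in the WT and 61.1, 53.4, 48.6 and 61.7 CPM in the CaMKK2 KO mice (log2 fold change 4.80, adjusted p = 1.88e-07). The pair differed in opposite directions between the genotypes in all 8 mice, and how the counting shared reads between them is not known. Gm8797 (chromosome 3, 5750806 to 5751295), a pseudogene in RefSeq, shares 93.0% of its windows with Gm1821 and 85.7% with the polyubiquitin gene Ubb. It was at 10.8, 5.74, 4.98 and 4.75 CPM in the WT and 157, 207, 157 and 207 CPM in the CaMKK2 KO mice (log2 fold change 4.81, adjusted p = 6.37e-09), while Ubb stood at a log2 fold change of 0.02 (adjusted p = 0.97).

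The ribosomal protein genes Rps3a1 and Rpl13a, which have many near copies, fell with log2 fold changes of -0.78 (adjusted p = 0.0158, up to 0.0806 without WT mouse 4 or CaMKK2 KO mouse 1 or 4) and -0.54 (adjusted p = 0.04, kept only without CaMKK2 KO mouse 3).

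Gm2682, a long noncoding RNA on chromosome 15 (60120540 to 60187408), was nearly confined to WT. It was at 133, 162, 148 and 164 CPM in WT and at 0, 0, 2.56 and 0 CPM in CaMKK2 KO mice, from 414 and 3 UMIs, a ratio of the summed levels of 201 (95% interval 68.4 to 980, counting error only). In macrophages it was at 0.331 CPM in WT and 0 in CaMKK2 KO mice. Gm47283, annotated on chromosome Y, was at 147, 181, 272 and 317 CPM in the WT and 57.7, 23.7, 0 and 45.4 CPM in the CaMKK2 KO mice (log2 fold change -3.004, adjusted p = 0.00573, but 0.0858 with DESeq2, which did not call it), although the 4 Y-linked genes named above had no UMI in any mouse.

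Apoe, the lipid carrier of macrophages, fell from 374, 588, 526 and 415.5 CPM to 43.8, 26.7, 35.0 and 30.9 CPM (log2 fold change -3.81, adjusted p = 6.37e-09). In macrophages it fell from 28130 to 2221 CPM (log2 fold change -3.66, adjusted p = 0.00104). Lyz2, another macrophage marker, showed a log2 fold change of 1.16 (adjusted p = 0.208). When genes under 5% of their macrophage level were left out, 48 of the 50 calls remained, and the 2 genes left out were Apoe and C1qa. The part of free macrophage RNA in the Apoe result itself was not tested. C1qa was also called lower (log2 fold change -1.03, adjusted p = 0.0189), but the cuts used it, so it is no result.

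Other called genes are given by their log2 fold changes. Higher in CaMKK2 KO mice were S100a1 (log2 fold change 1.18), S100a10 (0.74) and S100a11 (0.55) of the S100 calcium-binding family, Morrbid (1.47), a noncoding RNA known for the survival of myeloid cells, Spn (0.91), which encodes CD43, Tnfsf12 (0.94), which encodes TWEAK, Gmfg (0.88), a regulator of actin branching, and Tspo (0.55) of the mitochondrial membrane. Heatr5a (1.37), Mad2l2 (1.36), 1600014C10Rik (1.602), Dhrs3 (0.93), Poldip3 (0.79), Pmepa1 (0.75), Nucb1 (0.67), Srp14 (0.66) and 1810058I24Rik (0.57, not called by DESeq2) were higher too. Lower were Gpr183 (-1.32), the oxysterol receptor that guides lymphocytes, Crlf2 (-0.98), the receptor of thymic stromal lymphopoietin, Ifi206 (-1.97), AA467197 (-1.86), Coro1c (-0.87) and Clta (-0.63), the clathrin light chain. Gpr183 and Heatr5a were called in none of the 8 fits without a mouse, Gpr183 because it then had too few UMIs to be tested. Morrbid, S100a11 and Tspo were called in only 1 of these fits. S100a10, Spn, Tnfsf12, Poldip3, Srp14, Coro1c and 1810058I24Rik were called in 2, and S100a1, 1600014C10Rik, Dhrs3 and Pmepa1 in 3.

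By position, 7 of 213 tested genes on chromosome 3 were called (3.29%) and 6 of 190 on chromosome 15 (3.16%), against 1.11% of all tested genes. On chromosome 5, which holds Camkk2, it was 4 of 289 (1.38%). These counts were made after the calls were known and carry no test.

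Many of the calls were shared with other cells of the same libraries. Of the 31 higher genes 19 were also called higher in Granzyme C-high NK cells (29 tested there), 9 in macrophages (29 tested), 8 in T cells (27 tested) and 1 in B cells (10 tested). Of the 19 lower genes the counts were 9 (17 tested), 8 (18 tested), 6 (19 tested) and 0 (8 tested). None was called in the opposite direction. The share of all tested genes called was 3.31% in Granzyme C-high NK cells, 2.31% in macrophages, 0.795% in T cells and 0.0668% in B cells. Altogether 33 of the 50 were called likewise in at least 1 other class and 17 in none, among them Klrg1, Klra3, Kif1b, Nucb1, Myc, Gpr183, H2-Q6, Hspa1a and Hspa1b. These classes share the channel of their genotype, and a gene called in 1 class and not in another is not shown to differ between them.

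Set beside the Granzyme C-high NK cells of the same mice, the Granzyme C-low cells carried more RNA of the chemokines Ccl3, Ccl4 and Ccl5 and of the trafficking genes Klf2, Itgam and S1pr5. No test is given, because the cut on Gzmc, Gzmd and Gzmf made the classes. Of 7088 genes with 200 UMIs in both classes together, 35 (0.494%) were at least 2-fold higher in the Granzyme C-low cells of all 8 mice and 23 (0.324%) in the Granzyme C-high cells, on the ratio of CPM + 5. Ccl5 led, at 4214 ± 1127 CPM in the WT and 10980 ± 4657 CPM in the CaMKK2 KO mice against 129 ± 40.0 and 140 ± 47.3 CPM in Granzyme C-high cells, followed by Ccl4, Klf2, a factor that keeps lymphocytes in circulation, Ccl3, Itgam, Gm26740, Adgre5, Kcnj8, S1pr5 and Klf3. Their mean log2 ratios ran from 5.58 for Ccl5 down to 2.18 for Klf3.

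On the other side, next to Gzmc (-7.51) and Gzmd (-6.93), which the cut used, and their neighbor Gzme (-5.38), the largest ratios were those of Ifitm2 (-3.17), Spp1 (-3.03), Pclaf (-2.91), Sema6d (-2.85), Tmsb15a (-2.78), Myo10 (-2.65) and Cenpe (-2.45). Pclaf and Cenpe act in DNA replication and mitosis. By lists, the median log2 ratio was highest, at 1.08, over 19 immediate early and heat shock genes, 13 of them higher in the Granzyme C-low cells of all 8 mice. It was 0.995 over 20 trafficking genes, 12 of them higher in all mice, and 0.785 over 10 NKG2 and NKR-P1 genes, 8 of them higher in all mice. It was -1.56 over 24 cell cycle genes, 15 of them lower in all mice, and -0.705 over 21 genes of glycolysis and hypoxia, 10 of them lower in all mice. Over all 7088 genes the median was 0.15, with 20.7% higher and 8.21% lower in the Granzyme C-low cells of all 8 mice. The Granzyme C-low cells were shallower by the medians given above, and the part of depth in these ratios was not tested.

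**Figure D5:**
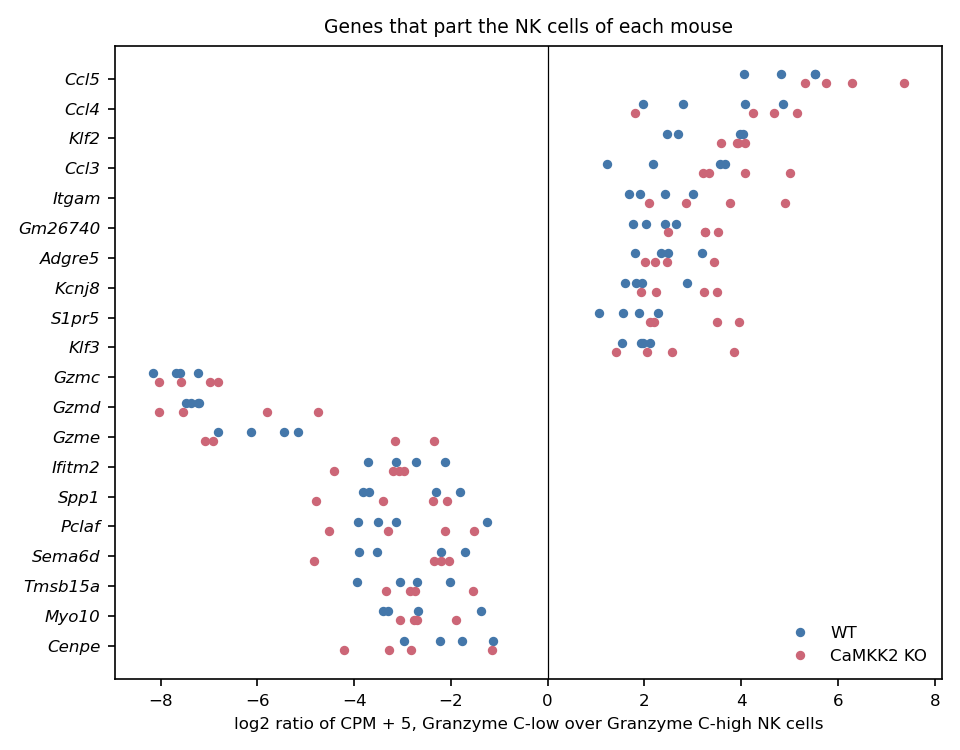
Log2 ratio of CPM + 5 between the Granzyme C-low and the Granzyme C-high NK cells of each mouse, for the 10 genes with the largest ratio each way; blue points are WT and red points CaMKK2 KO mice. All 8 mice lie on the same side of 0 for each gene, as the choice of these genes requires, and Gzmc and Gzmd belong to the cut that made the classes.

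Whether the genotype difference itself differed between the classes was tested in a model with mouse as a block. The Granzyme C-high class was uneven, with 130 of its 231 CaMKK2 KO cells from mouse 3. CaMKK2 KO mouse 4 gave 11 of them, with 229080 UMIs in all, so low levels there rest on few UMIs. Of 7088 genes 4 were called (0.0564%), and 606 had an unadjusted p under 0.05. For Icam1, an adhesion molecule, Granzyme C-low cells were at 50.2, 37.3, 89.7 and 106 CPM in the WT and 105, 140, 76.7 and 72.6 CPM in the CaMKK2 KO mice, which overlapped (log2 fold change 0.49, adjusted p = 0.408). In Granzyme C-high cells Icam1 was at 82.7, 61.6, 119 and 88.8 CPM in the WT and 46.6, 52.6, 30.6 and 26.2 CPM in the CaMKK2 KO mice, which did not overlap (log2 fold change -1.16, adjusted p = 0.0127), and the difference of the differences was 1.63 (adjusted p = 0.00556). Nfkbia, the inhibitor of NF-kB, gave 0.21 (adjusted p = 0.65) in Granzyme C-low and -1.55 (adjusted p = 0.00346) in Granzyme C-high cells, a difference of 1.61 (adjusted p = 0.0118, 0.0679 without WT mouse 4). Cxcr4, a receptor that holds cells in tissues, gave -0.04 (adjusted p = 0.952) and -1.83 (adjusted p = 0.00454), a difference of 1.69 (adjusted p = 0.0474, up to 0.12 without 1 mouse, and lost without any 1 of WT mice 2 and 4 and CaMKK2 KO mice 1, 2 and 3). Cd28, a costimulatory receptor, went the other way, with -0.59 (adjusted p = 0.116) in Granzyme C-low and 1.16 (adjusted p = 0.0155) in Granzyme C-high cells, a difference of -1.79 (adjusted p = 0.00778). The calls of Icam1 and Cd28 held without each of the 8 mice.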

How the data were processed

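The authors demultiplexed the runs with bcl2fastq 2.20 and aligned them to mm10 with Cell Ranger 4.0.0 (STAR 2.7.5c). They deposited raw UMI counts per gene and barcode, not normalized, with hashtag counts. Hashtags were assigned to mice with HTODemux (Seurat 5.3.0, quantile 0.99), and its 667 WT and 508 CaMKK2 KO doublets and 48 and 67 negative barcodes were left out. Among barcodes within the cuts, 22 WT and 25 CaMKK2 KO ones were such doublets. Scrublet (scanpy 1.11.5) marked 4 WT and 4 CaMKK2 KO members, which were kept and left out in an alternative.

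Counts were summed per mouse, with 4 mice per genotype, and tested with edgeR 4.0.16 (glmQLFTest, total counts as library sizes, at least 200 UMIs over 8 mice, Benjamini-Hochberg over all genes tested). The study's test, MAST on single cells, was not run, since mice and not cells are replicates and the package was not at hand. Macrophages were cells with 30 or more C1q UMIs, and T and B cells those with 4 or more CD3 or CD79 UMIs. All of these classes were limited to cells without a UMI of Ncr1 or Klrb1c. T and B cells also had under 30 C1q UMIs, and B cells under 2 CD3 UMIs. Intervals cover counting error only. The statistical steps, tested on simulated data, ran in R 4.3.3 and Python 3.11.15 (scipy 1.17.1). Alternatives used DESeq2 1.42.0, limma 3.58.1 on mean CPM of cells as log2(CPM + 1), TMM, other count limits, other cuts, and fits without each mouse. Positions and the transcripts compared for shared windows are from GENCODE vM21, which holds 31107 of the 31253 identifiers.

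Named genes were the 12 with the largest change each way among called genes whose mice did not overlap, the 3 with the lowest p and the 2 with the highest level of each list, Camkk2, the genes of the cuts and label, and the 10 with the largest ratio each way between the NK classes. All other genes named were chosen after their values were seen. The members and lists were chosen with earlier results of these data known. A few genes that meet the rule are not reported here.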

Additional observations from a re-analysis of the deposited data

Results flagged for a closer look

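In 8 of 104 groups of 4 mice examined, the highest or lowest mouse lay apart from the other 3 by more of the group's range than Dixon's 95% critical value allows, which chance gives in about 1 of 20 groups. Among WT mice, Gm8797 in mouse 1 was at 10.8 CPM against 4.75 to 5.74 CPM in the others (0.835 of the range), AA467197 in mouse 1 at 172 CPM against 84.3 to 93.2 CPM (0.898), and Hspa1a in mouse 4 at 174.5 CPM against 60.2 to 79.7 CPM (0.83). Among CaMKK2 KO mice, 1600014C10Rik in mouse 4 was at 129 CPM against 46.7 to 52.9 CPM (0.925). The other 4 were all CaMKK2 KO mouse 3, with Gm2682 at 2.56 CPM, which is 3 UMIs, against 0 (1.0 of the range, as any count gives where the other 3 mice are at 0), Crlf2 at 77.6 CPM against 54.2 to 58.1 CPM (0.833), H2-Q6 at 269 CPM against 156 to 165 CPM (0.916) and S100a10 at 1072 CPM against 1393 to 1411 CPM (0.948).

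The genotype difference itself differed between Granzyme C-low and Granzyme C-high NK cells in the interaction test for Icam1 (1.63 on the log2 scale, Granzyme C-low minus Granzyme C-high), Nfkbia (1.61), Cxcr4 (1.69) and Cd28 (-1.79).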

How the results depend on the processing

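The 50 calls between genotypes became 87 with DESeq2 (39 higher, 48 lower, 36 of the 50 among them, 12 without an adjusted p and 2 not called), 26 with genes of at least 500 UMIs, 366 with no limit on low counts, 98 without the cells rich in myeloid RNA (chosen after seeing the data), and 17 to 280 without single mice. They numbered 48 to 70 with TMM, a limit of 50 UMIs, the other cuts, without Scrublet doublets, with limma, or without genes under 5% of the macrophage level. Total counts gave 31 higher and 19 lower calls, and TMM 24 and 27. The 4 genes that differed between the NK classes became 9 with a limit of 50 UMIs, and 2 to 9 without single mice. The differences in the shares of cells kept their direction, and their exact p stayed above 0.05, from 1.94 to 3.94 and from 8.93 to 20.1 percentage points without single mice, where 3 mice against 4 cannot go below a p of 0.0571. Over 152 single genes and 2953 values, 181 lost the call, 125 gained it, 13 without a call changed sign by more than their standard error, and no called value turned in direction.

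Depth limits genes under 200 UMIs, Camkk2 and most checkpoint genes among them, and shares of cells with a UMI. Genotype and channel cannot be told apart, and the hashtags give the only replicates. No paired analysis was possible because the mice of the genotypes are different animals and the labels pair none of them.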
